A study of Drosophila melanogaster with 2 samples.

Results

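The nuclear hormone receptor genes EcR, usp, Hr96, Hr38, Hr39, Hr4, Eip75B, Eip78C and ftz-f1 were examined for peaks of a CG31224-eGFP fusion protein in Drosophila melanogaster embryos. The 9 genes, out of 13968 protein-coding genes, were a named list drawn up with earlier results of these data known. Their peaks were selected on the authors' IDR threshold, and the signal values of these peaks were the measure in view. Peaks were taken where their interval touched the gene or the 5 kb to each side of it, which gave 33 of the 3810 peaks on the chromosomes analysed. Which genes have peaks and how high the peaks are is therefore a description of the list, and no test was made on it.

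An anti-GFP antibody had been used for ChIP-seq, in which DNA bound to a protein is precipitated from sheared chromatin and sequenced. The chromatin came from whole embryos aged 0 to 24 h of a transgenic strain, CG31224-GFP, in which the fusion is carried as an insertion. There was 1 group with 2 biological replicates, and the labels give both replicates the same strain, age and antibody. No other genotype, stage or treatment was compared, and the control that the deposited lists derive from was not analysed here, so the height of a peak could not be set against untagged embryos. The embryos of that whole day were pooled over all tissues, so a peak present in few cells and a weak peak present in many cannot be told apart. The main list, made by the authors from both replicates, held 3815 peaks past an irreproducible discovery rate (IDR) of 1%, and 5 of them on unplaced scaffolds were left out. Replicate 1 by itself gave a list of 2405 peaks and replicate 2 one of 2604. Each peak carries a signal value, a score from the authors' peak caller on a scale that the sources read here do not state. In the main list it ran from 2.04 to 4550 with a median of 89.1, and it served here to rank and describe peaks. Read depth is unknown.

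Nuclear hormone receptors are transcription factors that bind DNA through a zinc finger domain and, in many cases, a small lipophilic ligand through a second domain. In flies the steroid hormone ecdysone binds EcR, which works as a heterodimer with usp, the fly retinoid X receptor. The hormone-bound pair switches on early genes such as Eip75B and Eip78C, and later receptors such as Hr4 and ftz-f1 time the stages that follow a hormone pulse, in the embryo as well as at metamorphosis. Hr96 belongs to another branch of the family: in flies it binds cholesterol and acts in lipid balance and in the response to foreign chemicals. Hr38, the fly relative of the NR4A receptors, and Hr39, a close relative of ftz-f1, complete the list.

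The sequences under 6 of the peaks are shown first: all 3 of Hr96, which held the pair of highest peaks, the highest peak of Hr4 and of Eip75B, the next members by height, and the Eip78C peak, which held the receptor half-site nearest to a summit. Each is the 101 bases centred on the summit, on the plus strand of the RefSeq copy of the dm6 assembly, in lower case. Capitals mark a match, on either strand, to CAGGCG, to the receptor half-site AGGTCA or to the repeat GAGAG.
Hr96 peak 1: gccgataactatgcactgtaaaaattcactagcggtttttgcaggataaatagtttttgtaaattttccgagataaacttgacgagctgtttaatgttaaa
Hr96 peak 2: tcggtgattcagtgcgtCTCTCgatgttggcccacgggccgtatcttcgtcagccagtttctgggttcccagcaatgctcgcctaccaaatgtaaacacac
Hr96 peak 3: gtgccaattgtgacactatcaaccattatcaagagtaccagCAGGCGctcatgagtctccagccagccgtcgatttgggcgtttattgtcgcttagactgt
Hr4 peak 7: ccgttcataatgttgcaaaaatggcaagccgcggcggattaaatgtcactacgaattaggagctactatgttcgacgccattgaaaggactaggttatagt
Eip75B peak 4: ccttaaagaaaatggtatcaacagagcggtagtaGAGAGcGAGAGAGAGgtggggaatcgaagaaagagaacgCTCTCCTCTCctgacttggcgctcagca
Eip78C peak 1: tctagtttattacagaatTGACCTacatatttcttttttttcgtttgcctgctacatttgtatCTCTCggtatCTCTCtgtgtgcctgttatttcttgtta
The Hr96 windows lie at chr3R:25025022-25025122, chr3R:25027353-25027453 and chr3R:25027923-25028023. That of Hr4 lies at chrX:1951866-1951966, that of Eip75B at chr3L:17975754-17975854 and that of Eip78C at chr3L:21242671-21242771. The first Hr96 window lies in the spacer between Hr96 and the divergent gene EMC6, and the others are intronic.

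Of the 9 receptor genes, 7 had at least 1 peak: Hr4 had 11, Eip75B 10, ftz-f1 4, Hr96 and usp 3 each, and EcR and Eip78C 1 each. Hr38 and Hr39 had none. Among all protein-coding genes, 42.4% had a peak by the same rule. That share grew with gene length, from 37.9% of genes under 5 kb through 53.4% at 5 to 20 kb and 59.4% at 20 to 50 kb to 66.5% at 50 kb or more. Both members under 5 kb (Hr96, usp) had a peak, 1 of the 3 members of 20 to 50 kb did (Eip78C, not Hr38 or Hr39), and all 4 members of 50 kb or more did (EcR, Hr4, Eip75B, ftz-f1). A summit lay inside the gene in the same 7 members. Inside summits were found in 10.6% of all protein-coding genes, in 4.05% of those under 5 kb, 23.2% of those of 5 to 20 kb, 43.4% of those of 20 to 50 kb and 54.6% of those of 50 kb or more. A summit within 500 bp of an own transcription start site (TSS) was found for Hr96, usp and Eip75B, 3 of 9 members, beside 15.5% of all protein-coding genes. Over the 502.8 kb of the 9 windows there were 0.656 peaks per 10 kb, and 0.277 over the chromosomes as a whole. The chromosomes include sequence away from genes, and the density over the windows of all protein-coding genes was not worked out. By member it ran from 0 for Hr38 and Hr39 and 0.11 for EcR to 2.13 for Hr96 and 2.22 for usp. Of the 3 usp peaks, 2 overlap each other and passed in neither replicate list. Peak number and peak height did not follow each other throughout the list. Hr96 had 3 peaks and the highest, and Hr4 and Eip75B, with the most peaks, came next by highest signal (234 and 158). The highest signal of ftz-f1, with 4 peaks, was lower (73.9) than that of EcR with 1 (129.8).

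**Figure D1:**
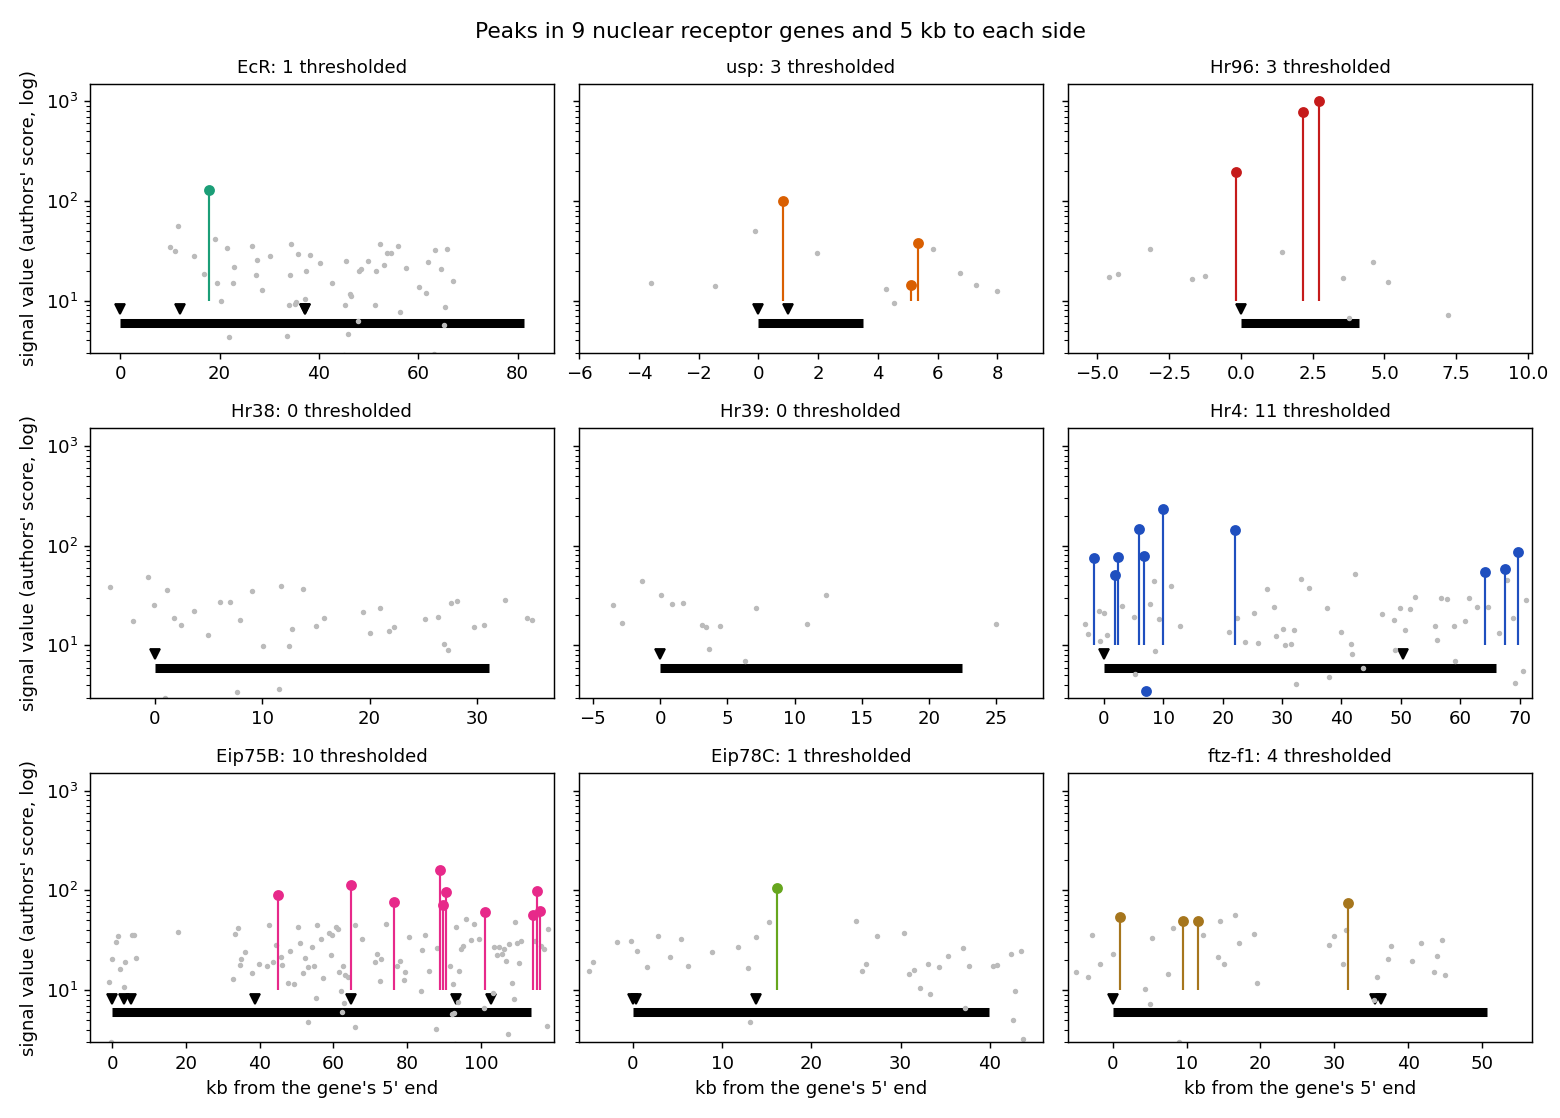
Peaks of the main list (coloured dots on stems) and peaks of the longer ranked list that did not pass the IDR threshold (grey dots) in the window of each receptor gene, by distance in kb from the gene's 5′ end along its strand (x) and signal value on a log axis (y); black bars are the genes and triangles their TSSs. The 3 Hr96 peaks stand at 196, 774 and 995, while no peak of another member passes 234, and the Hr38 and Hr39 panels hold grey dots only.

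Hr96 (FBgn0015240, chr3R:25025235-25029351, plus strand, 1 annotated transcript) held the strongest peaks of the list. Its peak 3, at chr3R:25027815-25028130, had a signal of 995, with 551 in replicate 1 and 449 in replicate 2, and ranked 51 of 3810. Its peak 2, at chr3R:25027247-25027544, had a signal of 774, with 386.5 and 393 in the replicates, and ranked 79. The 2 replicates differed by 1.02-fold on peak 2 and by 1.23-fold on peak 3. Both summits lay in intron 3 of 5, an intron of 1023 bp, 570 bp apart and 2168 and 2738 bp downstream of the TSS. Inside summits were found in 1476 protein-coding genes, and in 17 of these, Hr96 included, the strongest was at least as high as peak 3 of Hr96. Only 8 genes, Hr96 included, held 2 or more inside summits at least as high as its pair. The strongest Hr96 peak was 4.26 times the strongest peak of any other member, which belongs to Hr4, and the same ratio was 4.67 in replicate 1 and 4.24 in replicate 2.

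The third Hr96 peak was of a different size and place. Peak 1, at chr3R:25024904-25025239, had a signal of 196, with 88.3 in replicate 1 and 103 in replicate 2, and ranked 642. Its summit lay 163 bp upstream of the Hr96 TSS and 55 bp upstream of the TSS of EMC6, a subunit of a membrane protein insertion complex that is transcribed in the opposite direction. This peak is therefore shared by the start regions of both genes and is nearer to that of EMC6. Among 1231 protein-coding genes with a promoter peak in both replicates, the genes nearest to this peak in the log2 signal of the 2 replicates, EMC6 apart, were Dysb, magu and CG42327. Dysb, the fly dysbindin, had 87.5 and 104 in the replicates, magu had 87.3 and 103, and CG42327 had 89.2 and 101. The likeness was taken over 2 samples only and describes height alone.

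The ecdysone receptor subunits had lower peaks. EcR (FBgn0000546, chr2R:6087873-6169087, minus strand, 4 TSSs) had 1 peak, at chr2R:6151082-6151417, with a signal of 129.8, 73.4 in replicate 1 and 53.9 in replicate 2. It passed the threshold in both replicate lists and lay in an intron of 56758 bp, 5879 bp from the nearest EcR TSS, and the TSS of an asparagine tRNA gene was closer, at 1426 bp. A further EcR peak, at chr2R:6157284-6157619 and 323 bp upstream of the EcR-RD TSS, was in the authors' conservative list with a signal of 55.5 but had an IDR of 35.0% in the ranked list behind the main one. With the conservative list EcR thus counts as having a promoter peak, and with the main list it does not. usp (FBgn0003964, chrX:2038798-2042311, minus strand) had its main peak at chrX:2041315-2041650, with a signal of 99.96, 34.0 in replicate 1 and 65.0 in replicate 2. The replicates differed by 1.91-fold there, and only the replicate 2 value passed the threshold of its own list. The summit lay 171 bp upstream of the usp-RA TSS, within the 5′ UTR of the longer transcript. The whole usp gene lies within Actn, the alpha-actinin gene, on the same strand. The other 2 usp peaks, with signals of 14.3 and 37.8, overlapped each other 572 and 343 bp upstream of the Actn-RH TSS, beyond the 3′ end of usp, and passed in neither replicate list. They had 8.12 and 13.9 in replicate 1 and share 1 entry, of 32.1, in replicate 2.

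Eip75B and Eip78C encode fly relatives of the mammalian Rev-erb receptors; the Eip75B protein carries heme and responds to nitric oxide. Eip75B (FBgn0000568, chr3L:17950953-18064696, minus strand, 7 TSSs) had 10 peaks, 7 of them in introns, and 16 genes in all had 10 or more. The strongest, peak 4 at chr3L:17975636-17975971, had a signal of 158, with 98.3 in replicate 1 and 59.1 in replicate 2. Peaks 3 to 6 shared an intron of 23400 bp, and peaks 4 to 6 lay 2778 to 4365 bp upstream of the Eip75B-RA TSS. The Eip75B-RC start carried peak 2, at chr3L:17999662-17999997, whose summit was 9 bp away and whose signal was 114, with 49.2 and 65.0 in the replicates. Of the 10 peaks 5 passed the threshold in both replicate lists (peaks 1, 2, 4, 6 and 9), and replicate 1 was the higher on 3 of those, so no replicate was the higher throughout. The remaining 3 peaks lay downstream of the gene, nearest to a long noncoding RNA gene, lncRNA:CR45393. Eip78C (FBgn0004865, chr3L:21226609-21266503, plus strand) had a single intronic peak, at chr3L:21242553-21242888 and 2374 bp from the Eip78C-RB TSS. Its signal was 106, with 74.45 in replicate 1 and 36.2 in replicate 2. The replicates differed by 2.06-fold, and replicate 2 reached that value in its ranked list only.

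Hr4 (FBgn0264562, chrX:1941940-2007956, plus strand), a receptor that in flies ends the early ecdysone response and acts on the timing of hormone release, had the most peaks of the list. Its 11 peaks were matched or passed by 9 protein-coding genes in all, itself included, and by 7 of the 313 genes of 50 kb or more, which had 2.14 peaks on average and 1 at the median. The strongest, peak 7 at chrX:1951832-1951991, had a signal of 234, with 118 in replicate 1 and 106 in replicate 2. Its summit lay 9976 bp from the nearest Hr4 TSS, and the TSS of CR46447 was closer, at 2564 bp. Peak 4, at chrX:1947596-1947931, had 146, with 103 and 49.7, and peak 8, at chrX:1963882-1963978, had 143, with 78.1 and 66.8. These 3 were the Hr4 peaks that passed the threshold in both replicate lists, and on peak 4 the replicates differed by 2.08-fold. Peaks 2 to 7 lay in 1 intron of 10387 bp near the 5′ end, peak 8 lay in another of 14429 bp, and no Hr4 summit was within 500 bp of an Hr4 TSS. Peaks 5 to 8 were nearest to the TSS of CR46447, and 3 of the 11 peaks were nearest to an Hr4 TSS. Peak 6 had a signal of 3.50 in the main list, overlapped peak 5 (79.6) and had no replicate peak of its own, so peaks 5 and 6 share the values 40.4 and 36.4. Peak 9 (54.5) lay in the 3′ UTR and passed in neither replicate list. The other 3 lay outside the gene and were nearest to the starts of CG3587, PIG-K and east, at 98, 205 and 585 bp.

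**Figure D2:**
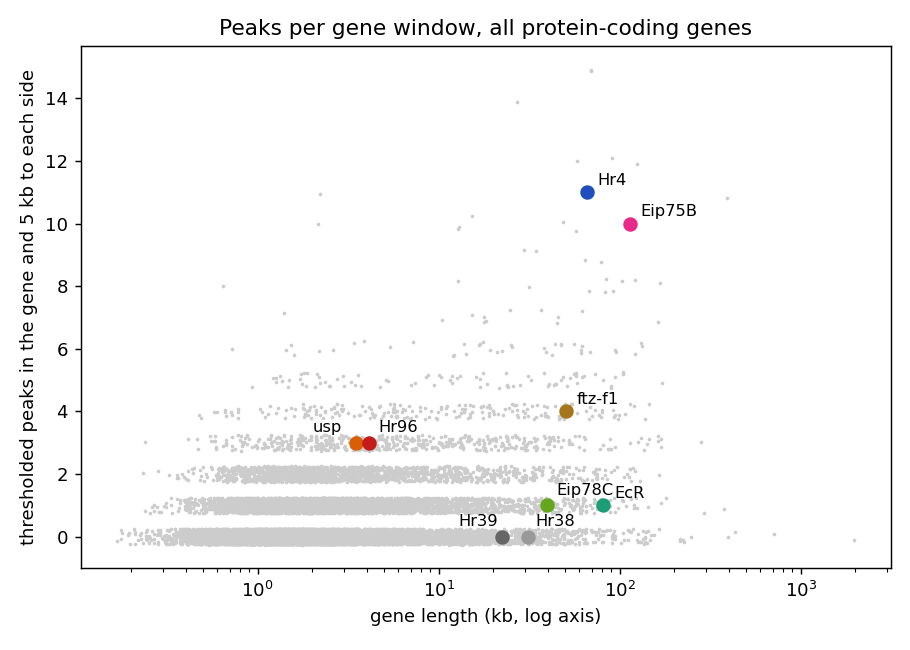
Number of main-list peaks in the gene and 5 kb to each side (y, with a small vertical jitter for the grey points) against gene length in kb on a log axis (x) for all protein-coding genes; the 9 receptor genes are coloured and named. Hr4 with 11 and Eip75B with 10 are near the top of the plot, and Hr38 and Hr39 lie at 0.

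ftz-f1 encodes a receptor that makes tissues competent to answer a later ecdysone pulse and that in the early fly embryo acts with the segmentation protein ftz. The gene (FBgn0001078, chr3L:18750607-18801309, minus strand) had 4 peaks, and none passed the threshold in both replicate lists. Peak 4, at chr3L:18769280-18769615, was the highest, with a signal of 73.9 in the main list and values of 25.9 and 47.6 in the replicates. Its summit lay 3704 bp upstream of the ftz-f1-RC TSS. Peak 1 (54.0) lay in the 5′ UTR with 37.8 and 13.9 in the replicates, peak 2 (48.9) had 12.9 and 35.6, and peak 3 (49.0) had 37.0 and 18.9. The replicates differed by 1.83-fold to 2.76-fold on these 4 peaks and in both directions, so the order of the 4 heights is not held by the replicates. All 4 were below the median of the main list. The first 3 also lie within lncRNA:CR45939.

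Hr38 and Hr39 had no peak past the threshold, and their strongest entries in the ranked list are given instead. For Hr38 (FBgn0014859, chr2L:20683462-20714588, minus strand) this was chr2L:20715065-20715400, 645 bp upstream of the TSS, with a signal of 48.0, 19.95 in replicate 1 and 26.5 in replicate 2, at an IDR of 7.09%. The Hr38 entry nearest to the threshold had an IDR of 4.22% and a signal of 38.7. Hr39 (FBgn0261239, chr2L:21237250-21259675, plus strand) had its strongest entry at chr2L:21235753-21236088, 1329 bp upstream of the TSS and inside the neighbouring gene CG31626, with a signal of 44.5, 29.75 and 12.5 in the replicates, and an IDR of 5.17%. The strongest entries of both genes were below the highest peak of every member that passed, the lowest of which was that of ftz-f1 (73.9), and near in signal to the weaker ftz-f1 peaks 2 (48.9) and 3 (49.0). Just inside the threshold were Eip75B peak 8 and ftz-f1 peak 2, with IDR scores of 856 and 863 where 830 is the lowest a thresholded peak has.

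The window edge mattered for Eip75B. A peak at chr3L:17945771-17945866, 5087 bp from the gene and so just outside the window, had a signal of 182.5, with 107 in replicate 1 and 75.5 in replicate 2, higher than any of the 10 peaks inside. For the other members the nearest outside peak was 7865 bp (usp, near moody, signal 475) to 66190 bp (ftz-f1, near Dysb, 198) away. Peaks inside the window but outside the gene reached out to 3599 bp for Hr4, 2062 bp for Eip75B and 1669 bp for usp.

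The summits inside the receptor genes were intronic in about the share seen in other genes. Of the 24 that lay inside a member, 21 were in introns (87.5%, beside 80.2% of the summits inside all protein-coding genes and 94.5% of those inside genes of 20 kb or more), 2 in a 5′ UTR (usp, ftz-f1), 1 in a 3′ UTR (Hr4) and 0 in coding exons, while 7 lay downstream and 2 upstream of the gene. For 17 peaks the nearest TSS belonged to the member itself and for 16 to another gene, so about as many peaks were nearer to a neighbour as to the receptor gene. Of the 33 summits 6 were within 500 bp of any TSS (18.2%, beside 47.8% of all main-list peaks), 3 of them of a member's own. The G and C content of the 101-base windows had a median of 39.6%, against 34.7% over all main-list peaks (quartiles 27.7% and 45.5%) and 42.1% over the chromosomes.

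Agreement between replicates was uneven across the 33 peaks. The lists of both replicates held 12 of them (36.4%, beside 48.9% of all main-list peaks), 14 were in the list of a single replicate (42.4%, beside 29.1%), 5 of them of replicate 1 and 9 of replicate 2, and 7 were in neither (21.2%, beside 22.0%). All 33 overlapped an entry of each replicate's ranked list. The median signal was 145 for peaks in both lists, 74.9 for those in a single list and 50.5 for those in neither. Over the 12 peaks in both lists, replicate 1 was above replicate 2 by 0.27 at the median on the log2 scale, with an SD of 0.45. That difference ran from -0.40 (Eip75B peak 2) to 1.06 (Hr4 peak 4) and was above 0 in 8. By gene, all 3 Hr96 peaks were in both lists, as were the EcR peak, 5 of 10 Eip75B peaks and 3 of 11 Hr4 peaks, and no peak of usp, Eip78C or ftz-f1 was. With the list of replicate 1 alone, 5 of 9 members had a peak, beside 31.2% of all protein-coding genes, and ftz-f1 and usp were the members lost. With that of replicate 2 alone, 6 of 9 did, beside 34.6%, and Eip78C was lost.

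**Figure D3:**
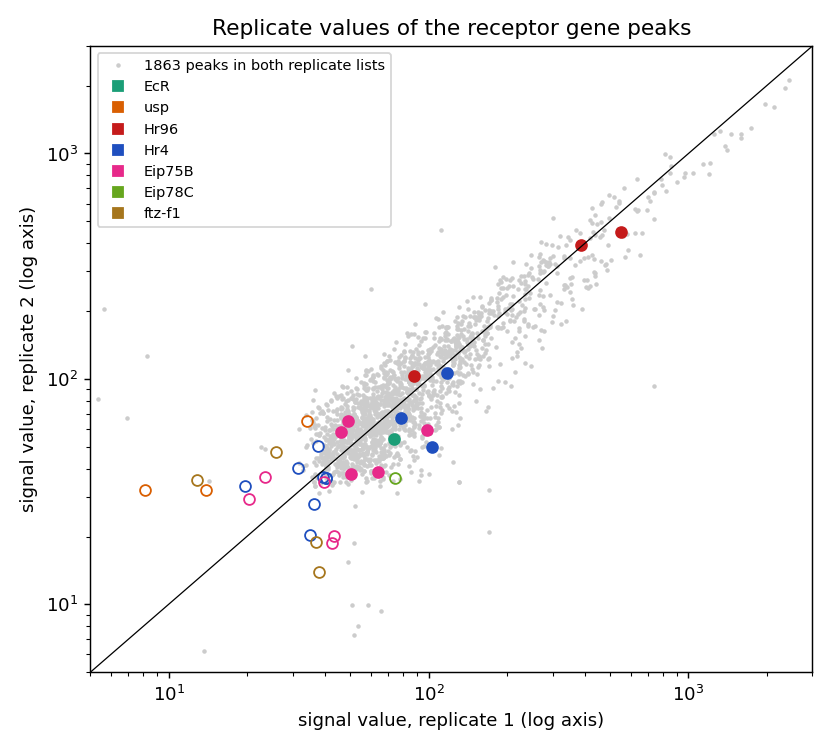
Signal value in replicate 1 (x) and replicate 2 (y), both on log axes, for the 33 receptor gene peaks; filled circles passed the threshold in both replicate lists, open circles in 1 or neither, small grey points are the 1863 main-list peaks in both lists, and the line marks equal values. The 2 intronic Hr96 peaks lie close to the line at the upper end, and the ftz-f1 and usp circles lie away from it at the lower end.

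Set against the whole list, the receptor gene peaks were of ordinary height apart from the intronic pair of Hr96. The median signal of the 33 was 77.5, beside 89.1 for all main-list peaks, and 76.1 for the members other than Hr96. In all, 14 of 33 were above the median of the main list, and their signals ran from 3.50 (Hr4 peak 6) to 995 (Hr96 peak 3). By the highest peak of each gene the order was Hr96 (995), Hr4 (234), Eip75B (158), EcR (129.8), Eip78C (106), usp (99.96) and ftz-f1 (73.9). Hr96 stood above Hr4 in both replicates, and Hr4 (118 and 106) above all the rest. The replicates did not hold the order of the other 5. In replicate 1 their highest values ran from Eip75B (98.3) through Eip78C (74.45), EcR (73.4) and ftz-f1 (37.8) to usp (34.0). In replicate 2 usp (65.03) and Eip75B (64.95) came first, followed by EcR (53.9), ftz-f1 (47.6) and Eip78C (36.2).

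**Figure D4:**
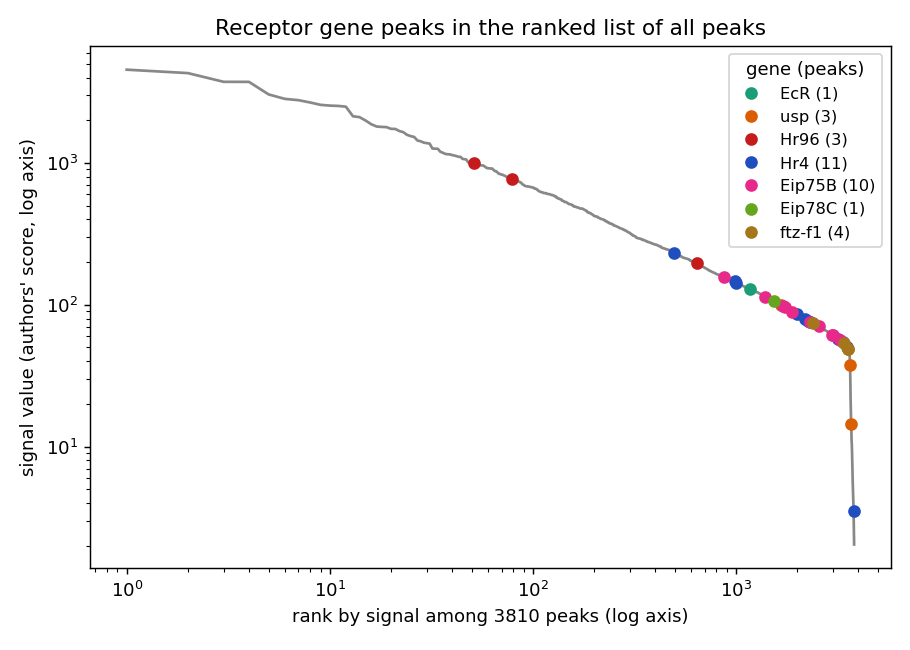
Signal value (y, log axis) against rank among the 3810 main-list peaks (x, log axis), with the 33 receptor gene peaks coloured by gene on the grey curve of all peaks. The pair of intronic Hr96 peaks is at ranks 51 and 79, the next are Hr4 at rank 496 and the Hr96 promoter peak at 642, and the rest lie further right.

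The sequence words most in excess at other summits were about as rare in the receptor gene peaks as in all main-list peaks. Among the 200 highest non-member peaks over 500 bp from a TSS, the 6-letter word with the largest excess over flanking sequence was CAGGCG, counted on both strands. It was in 50 of the 200 summit windows of 101 bases, and in 5.0% of the windows of the same width centred 300 bp to the side. By rank over the whole list, 32.0% of ranks 1 to 100 held it, 8.75% of ranks 101 to 500, 2.33% of ranks 501 to 2000 and 3.26% of ranks 2001 to 3810. The word was picked from the highest peaks, so its larger share in the top ranks follows from that choice. In the receptor genes 2 of 33 windows held it, Hr96 peak 3, where it lies 4 to 9 bases from the summit, and usp peak 2, beside 4.23% of all peaks. Hr96 peak 2, almost as high, did not hold it in this window. The 8-letter word with the largest excess in all non-member peaks was ATTTAAAA, found in 5.72% of their windows and 2.24% of flanks. It was in 2 of the 33, Hr4 peak 2 and Eip75B peak 2, the one at the Eip75B-RC start.

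Binding elements of the receptors themselves were looked for in the 301 bases around each summit, on both strands. The half-site AGGTCA was in 3 of 33 windows (Hr4 peak 6, Eip75B peak 8 and Eip78C peak 1), beside 6.25% of all peaks. It was in 6.85% of flanks, which here are windows of the same width centred 301 bp to the side of all peaks. In Eip78C peak 1 it is 27 bases from the summit and is the run in capitals near the start of the sequence above. The longer TCAAGGTCA, which contains the half-site and which ftz-f1 and its relatives bind as monomers, was in Hr4 peak 6 and Eip75B peak 8. It was in 0.262% of all peaks and 0.381% of flanks. The 2 matches lay 51 and 93 bases from the summits, and within 50 bp of the summit it was in 0 of 33. Hr4 peak 6 had a signal of 3.50 and no replicate peak of its own, and Eip75B peak 8 passed in neither replicate list. The inverted repeat of the half-site that the EcR and usp pair binds was in 0 of 33 and in 0 of all peaks, in its strict form. GAGAG, the core letters bound by GAGA factor, was in 13 of 33, beside 37.2% of all peaks and 37.3% of flanks. Eip75B peak 4 held it 6 times within 32 bases of the summit, with overlaps. The E-box CACGTG was in 1 (Eip75B peak 6, 4 bases from the summit), beside 3.70% of all peaks and 4.57% of flanks. TATCGATA, the DNA replication-related element, was in 0, beside 4.80% of all peaks and 1.48% of flanks. A match of letters describes the window and does not show that a factor binds there.

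The related genes were described by the same rules, from lists chosen with results known. The shares over all protein-coding genes, to set beside the count of each list, are 42.4% by window and 15.5% by promoter. Of 12 other nuclear receptor genes 7 had a peak in the window and 4 a promoter summit. The highest was in Hr3, the fly ROR relative that acts between Eip75B and ftz-f1, with a signal of 444, 223 in each replicate and a summit 7893 bp from an Hr3 TSS. ERR, the fly oestrogen-related receptor, had 159, Hr51 had 119 and Hr83 had 91.4. The peak of ERR was nearest to the start of Atg18a, that of Hr51 to unc-5 and that of Hr83 to Pak, so of these 4 the Hr3 peak alone was nearest to its own gene. None of these 4 reached the height of the intronic Hr96 pair. No peak was found for svp, tll, dsf, kni or knrl.

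For ecdysone synthesis, uptake and turnover, 2 of the 12 genes found in the annotation had a peak in the window, beside 42.4% of all protein-coding genes. A promoter summit was found in 0, beside 15.5%. The 2 genes were sad (93.0) and sro (81.4), and both peaks were within 100 bp of another gene's TSS. Of 18 ecdysone response genes 12 had a peak and 4 a promoter summit. Among these MsrA had the highest (252, with 126 and 118 in the replicates, nearest to the start of CG7841), followed by Eip63F-1 (237), Eip63E (212) and Cth (210.2, nearest to Sec6). The broad-complex gene br, a classical early gene, had 3 peaks, the highest with 143 and nearest to Mur2B, and Eip74EF had 1 with 64.3, nearest to CycT. Of 14 nuclear receptor cofactor genes 9 had a peak and 5 a promoter summit. trr, a histone methyltransferase that works with EcR, had 233 (nearest to Coa8), Hsp83, the chaperone Hsp90, had 221, Smr, the SMRTER corepressor, had 160.0 (nearest to a noncoding RNA gene) and alien had 144 (nearest to CG18661). The coactivator gene tai had 8 peaks, up to 102, the highest nearest to CG9586.

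Of 8 juvenile hormone genes 5 had a peak in the window, and 1 of them a promoter summit. The receptor genes gce and Met had signals of 413 (208 and 201 in the replicates) and 121, and their peaks were nearest to an antisense RNA gene and to Ptp10D. The hydrolase genes Jheh1, Jheh2 and Jheh3, which are neighbours, shared a peak of 152. Of 10 sterol and lipid genes linked to Hr96 in flies 5 had a peak and 1 a promoter summit. The lipase gene bmm had the highest (225, with 75.3 in replicate 1 and 146 in replicate 2), then the lipid droplet gene Lsd-2 (123), and the sterol transport genes Npc2a (94.0, nearest to a noncoding RNA gene) and Npc2b (51.9). mag, a lipase gene that Hr96 regulates in flies, had none. By window only the list of ecdysone synthesis, uptake and turnover was below the 42.4% over all protein-coding genes, and the other related lists were above it. By promoter the shares lie on both sides of the 15.5%. The lists were not split by gene length, with which the window share grows.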

How the data were processed

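The deposited measurements were peak lists in dm6 coordinates, per the file headers and the deposited description files: a ranked and a thresholded (IDR of 1%) list for each of 2 biological replicates and for the pair, with a conservative version of the last. Each deposited peak has a signal value and an IDR score, both scores given by the authors, and in the ranked lists the authors also gave the IDR itself as −log10, used here only to give the IDR of peaks that did not pass. The aligner and the peak caller were not given in the sources used here. Counts of reads were not analysed, so depth is unknown.

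The members, the gene lists, the windows and the sequence elements were chosen with earlier results of these data known. Peaks were assigned with Python 3.11.15 and pandas 2.3.3 to genes of Ensembl release 115 (5 kb to each side; promoter, a summit within 500 bp of a TSS), and 200 of 200 planted genes were recovered on simulated peaks by each rule. The value of a replicate is that of the nearest-summit peak overlapping by 1 bp or more in its thresholded list, else in its ranked list. Words were counted within 50 bp and elements within 150 bp of the summit, and the letters come from RefSeq. The genes named were all members with every peak, up to 4 genes per related list by highest signal, and the 3 genes most like the Hr96 promoter peak; br, Eip74EF, tai, Met, mag and the receptors with no peak were named after their values were seen. Of 14 genes listed for ecdysone synthesis, uptake and turnover, 2 were not matched by symbol. Coordinates are 1-based.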

Additional observations from a re-analysis of the deposited data

How the results depend on the processing

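The number of members with a peak was 7 with no flank, with 1 kb or 10 kb to each side, by summit and with the conservative list, 6 with peaks above the median signal (ftz-f1 lost) and 5 to 6 with the list of 1 replicate. The share of all protein-coding genes moved with these settings. It was 10.6% with no flank, 25.2% at 1 kb, 56.4% at 10 kb, 41.8% by summit and 41.6% with the conservative list. With peaks above the median signal it was 27.9%, and with the lists of replicates 1 and 2 it was 31.2% and 34.6%. The 33 peaks became 14 when only those above the median signal were kept, 17 when the nearest TSS had to be the member's own, 31 when overlapping peaks were merged, and 20 to 21 with the list of a single replicate. The conservative list held 28 peaks in the windows. Members with a promoter peak numbered 3 within 250 or 1000 bp, 4 with the conservative list, 2 to 3 with a single replicate's list, and 1 (Hr96) when only the outermost TSS of each gene was used, since the promoter peaks of usp and Eip75B are at inner TSSs. The promoter shares of all protein-coding genes were 12.4% within 250 bp, 18.2% within 1000 bp and 15.3% with the conservative list. They were 10.5% and 12.3% with the lists of replicates 1 and 2, and 13.5% with the outermost TSS only. The median signal of the peaks was 98.1 over the 23 that the conservative list matched within 100 bp, and 36.9 to 40.4 on the values of a single replicate. The main-list value was 1.00 times the sum of the replicate values at the median of the 33 peaks, with a range from 0.05 to 1.13, and the ratio was 0.93 to 1.04 over the 12 peaks in both replicate lists. The choice to merge overlapping peaks, to use the nearest TSS and to count the 6-letter word was made after seeing the data. No paired analysis was possible because the series has 1 group and its results come from no test. Depth is unknown, so the difference between the 2 replicates is the only error these values have.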

Other observations

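The conservative list held 5 peaks in the receptor windows that no main-list summit within 100 bp matched. Beside the EcR peak near the EcR-RD start, these were an Hr4 intron peak at chrX:1984137-1984472 (signal 52.5), an Eip75B coding-exon peak at chr3L:17955283-17955618 (48.1) and ftz-f1 intron peaks at chr3L:18769489-18769824 (40.4) and chr3L:18784598-18784933 (56.9). In the ranked list behind the main one, the Hr4 peak had an IDR of 79.5% and the ftz-f1 peaks 50.4% and 79.8%. The Hr4 peak and the second ftz-f1 peak overlapped no entry of replicate 2, and the EcR peak none of replicate 1. The first ftz-f1 peak overlaps main-list peak 4 of ftz-f1 and shares its replicate values of 25.9 and 47.6. The Eip75B one was the only summit of any thresholded list examined that lay in a coding exon of a member, and its IDR was 2.78% in the ranked list behind the main one. The list of replicate 1 held 1 peak without an overlap in the main list, in an Eip75B intron at chr3L:17968469-17968788, with 36.5 in replicate 1 and 8.52 in replicate 2.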
